A study of Mus musculus with 7 samples.

Results

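Sites of the mouse genome at which a peak was called in 2 or more of 3 ChIP-seq peak lists are described here: endogenous SET, pulled down by an anti-SET antibody in R1 cells, and the isoforms SETα and SETβ, each carrying an HA tag and pulled down by anti-HA in KH2 cells. The sites were chosen by the positions of the peaks themselves: a peak became part of a site when it shared at least 1 bp with a peak of another list, and overlapping peaks were merged. This left 283 sites, built from 645 of the 6198 peaks in the lists. Of them, 36 were held by SET and SETα, 70 by SET and SETβ, 99 by SETα and SETβ, and 78 by all 3 lists. R1 and KH2 are lines of mouse embryonic stem cells, the second built for doxycycline-inducible transgenes. The tagged isoforms were over-expressed in KH2 with doxycycline at 1 μg/mL for 8 h, per their labels, and the label of the R1 library carries no such treatment. The sample numbers in that treatment text do not match the order of the samples. Each group had 1 library, and no peak list of an input or of an anti-HA library without a tagged protein was used here. The SET library differs from the other two in antibody, cell line and induction, which cannot be told apart.

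SET, also known as TAF-I and part of the INHAT complex, is an acidic nuclear chaperone that binds histones, shields their tails from acetyltransferases and inhibits the phosphatase PP2A. SETα and SETβ are made from alternative first exons of the gene and differ at their amino terminus. In embryonic stem cells SETα is known as the prevailing isoform, and SETβ takes over on differentiation. A peak is a stretch where precipitated fragments pile up above the local background, so a site in 2 lists is a position where such a pile was called in 2 libraries. It is not by itself a site of binding, and recurrent background of the libraries was not tested.

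Sharing involved 184 of 3446 SET peaks (5.34%), 214 of 1186 SETα peaks (18.0%) and 247 of 1566 SETβ peaks (15.8%). These percentages follow from the choice of the sites, and nothing is read from them. Among the 184 SET peaks in a site, 78 (42.4%) had a counterpart in both isoform lists, 70 (38.0%) in SETβ alone and 36 (19.6%) in SETα alone. The SETα peaks in a site were divided into 100 (46.7%) shared with SETβ alone, 78 (36.4%) in all 3 lists and 36 (16.8%) shared with SET alone. For SETβ these numbers were 99 (40.1%), 78 (31.6%) and 70 (28.3%). One site, on chromosome 9, held 2 peaks of a list: the SETβ peak at 2999969 to 3000745 (777 bp) covered SETα peaks at 3000006 to 3000313 and 3000333 to 3000669. All other sites held 1 peak per list. No p-values are given, since each group is 1 library. Intervals are 95% intervals over sites or peaks, Wilson for shares and by exact order statistics for medians, and cover counting error only.

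The rule sat far from its edge for most pairs of peaks. Of 439 overlapping pairs, 315 (71.8%) shared over 100 bp and 122 shared 51 to 100 bp. The smallest overlaps were 7 bp, between a SET peak and a SETα peak on chromosome 13, and 14 bp, between a SET peak and a SETβ peak on chromosome X. Just outside the rule lay 13 pairs of peaks up to 100 bp apart, in 4 of which neither peak was part of any site. The 5 closest of them were 1 bp apart on chromosome 13 (SET at 23492415 to 23492593, SETβ at 23492595 to 23492843), 23 bp apart on chromosome Y (SETα and SETβ), 24 bp apart on chromosome 1 (SET at 107461504 to 107461722, SETβ), 28 bp apart on chromosome 3 (SETα at 148715439 to 148715666, SETβ) and 36 bp apart on chromosome 11 (SETα at 68854454 to 68854737, SETβ). Positions are given on mm9, with the first base of a chromosome as 1.

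The sites were narrow. The merged sites, which span every peak at the position, had a median width of 203 bp (interquartile range 154 to 273.5 bp). By class the median was 190.5 bp for SET and SETα (interval of the median 140 to 228 bp), 186.5 bp for SET and SETβ (161 to 205 bp), 216 bp for SETα and SETβ (187 to 244 bp) and 212 bp for all 3 lists (177 to 234 bp). These intervals overlap one another. The widest site of each class was 593, 879, 1204 and 1171 bp.

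Peaks inside sites were shorter than the other peaks of the same list. SET peaks had a median width of 131.5 bp where SETα shared the site, 102 bp where SETβ did and 113 bp in all 3 lists, against 200 bp (198 to 201) for the 3262 SET peaks found in 1 list. SETα peaks measured 136.5 bp with SET, 158.5 bp with SETβ and 136 bp in all 3 lists, against 232 bp (228 to 238) for the 972 others. For SETβ the medians were 164.5 bp with SET, 185 bp with SETα and 169.5 bp in all 3 lists, against 266 bp (261 to 271) for the 1319 others. SET peaks shared with SETβ alone had the lowest median of these groups, and 75% of them were at most 153.25 bp wide.

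**Figure D1:**
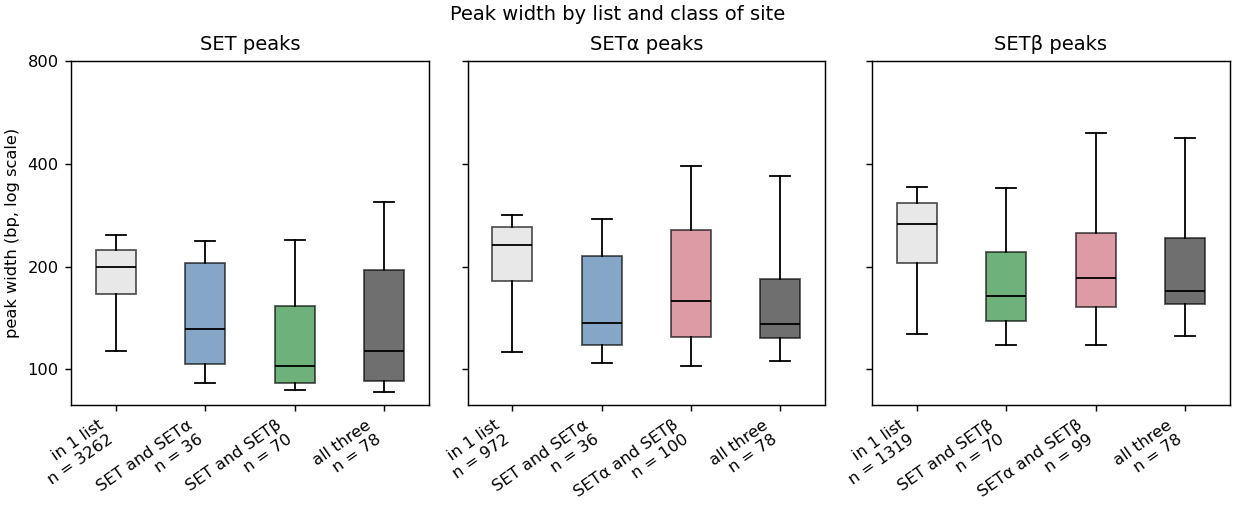
Width of SET, SETα and SETβ peaks (bp, log scale) for peaks in 1 list and for each class of site, as boxes from the 25th to the 75th percentile with the median as a line and whiskers at the 5th and 95th percentiles. Median widths in sites lie between 102 and 185 bp, under those of peaks in 1 list (200, 232 and 266 bp).

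A wider peak has more room to overlap another by position. In each list, peaks under 150 bp were in a site more often than those of 200 to under 300 bp. The parts of position and score in these shares were not tested. Of the 150 SET peaks under 100 bp, 67 (44.7%, interval 36.9 to 52.7%) were in a site, against 27 of 1628 (1.66%, 1.14 to 2.40%) at 200 to under 300 bp. At 300 bp or more the share was 10 of 51 (19.6%, 11.02 to 32.5%). For SETα the share was 4 of 13 (30.8%, 12.7 to 57.6%) under 100 bp, 114 of 263 (43.3%, 37.5 to 49.4%) at 100 to under 150 bp, 42 of 663 (6.33%) at 200 to under 300 bp and 24 of 60 (40%, 28.6 to 52.6%) at 300 bp or more, so that the widest SETα peaks were in sites about as often as the short ones. In the SETβ list, where no peak was under 100 bp, the share was 54 of 194 (27.8%) at 100 to under 150 bp. It was 96 of 272 (35.3%) at 150 to under 200 bp, 59 of 645 (9.15%) at 200 to under 300 bp and 38 of 455 (8.35%) at 300 bp or more. The short peaks also carried the higher authors' scores: the median score was 97.85 for SET peaks under 100 bp and 46.39 for those from 200 to under 300 bp.

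Within a score class the difference in width was smaller, and its direction varied with the class and the list. For peaks scoring at least 100, the 97 SETα peaks in a site had a median width of 133 bp (128 to 147) and the 61 in 1 list 103 bp (100 to 112). The 144 SETβ peaks in a site measured 162 bp (156 to 168) and the 108 in 1 list 126 bp (122 to 133). The 63 SET peaks in a site measured 97 bp (92 to 104) and the 19 in 1 list 103 bp (88 to 115), with overlapping intervals. From 60 to under 100, SETα peaks in a site were the shorter ones, with 146 bp (137 to 158) against 173 bp (162 to 182) in 1 list. SET peaks of that class measured 112 bp (103 to 132) and 121 bp (116 to 125), and SETβ peaks 204 bp (171 to 239) and 172 bp (167 to 186), with overlapping intervals for both lists. Under a score of 60, SETβ peaks in a site measured 222 bp (209 to 253) and those in 1 list 282 bp (276 to 286). SETα peaks there measured 222 bp (141 to 251) and 247 bp (244 to 250), with overlapping intervals, and SET peaks 156.5 bp (126 to 209) and 203 bp (201 to 205), also overlapping. The part of the score in the width of shared peaks was not tested beyond these classes.

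Midpoints lay close together in every class. In the 78 sites of all 3 lists the median distance between midpoints was 8 bp from SET to SETα (interval 5.5 to 12 bp), 12.25 bp from SET to SETβ (6 to 18 bp) and 9.75 bp from SETα to SETβ (7.5 to 17 bp). In sites of 2 lists it was 24.5 bp for SET and SETα (7 to 45.5 bp), 20 bp for SET and SETβ (16 to 23.5 bp) and 15.5 bp for SETα and SETβ (10.5 to 21 bp). For SET and SETα it was 9.5 bp where the overlap had to cover 50% of both peaks, a rule that also brought former 3-list sites into this class. The intervals of the 2-list and 3-list classes overlap for each pair of lists, and without the 3 stretches of neighbouring sites on chromosomes 2, 9 and 13 the SETα to SETβ medians were 11.25 bp in 2-list and 11.5 bp in 3-list sites. The distance was at most 10 bp in 45 of 78 SET to SETα pairs of the 3-list sites (57.7%, 46.6 to 68.0%) and in 13 of 36 pairs of the 2-list sites (36.1%, 22.5 to 52.4%). It was at most 50 bp in 72 of 78 (92.3%, 84.2 to 96.4%) and 26 of 36 (72.2%, 56.0 to 84.2%). For SET to SETβ the 50 bp shares were 67 of 78 (85.9%, 76.5 to 91.9%) and 56 of 70 (80%, 69.2 to 87.7%), and for SETα to SETβ 70 of 78 (89.7%, 81.0 to 94.7%) and 75 of 99 (75.8%, 66.5 to 83.1%). The intervals of the 50 bp shares overlap for each pair of lists apart from SET to SETα, where they meet at 84.2%. The 10 bp shares for SET to SETβ were 36 of 78 (46.2%, 35.5 to 57.1%) and 23 of 70 (32.9%, 23.0 to 44.5%). For SETα to SETβ they were 40 of 78 (51.3%, 40.4 to 62.1%) and 39 of 99 (39.4%, 30.3 to 49.2%). The intervals of the 10 bp shares overlap for each pair of lists.

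The width of the peaks limits how far apart overlapping midpoints can lie, so the distance was also taken as a percentage of the largest distance that still allows an overlap. The median was then 5.37% for SET to SETα, 6.62% for SET to SETβ and 7.00% for SETα to SETβ in the 3-list sites. In the 2-list sites it was 18.2%, 16.4% and 8.85%. On this scale the difference between the classes was smallest for SETα to SETβ. The largest spread among the 3 midpoints of a site had a median of 18.25 bp (interquartile range 9 to 43.1 bp), was at most 50 bp in 63 of 78 sites (80.8%, 70.7 to 88.0%) and exceeded 100 bp in 3.

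**Figure D2:**
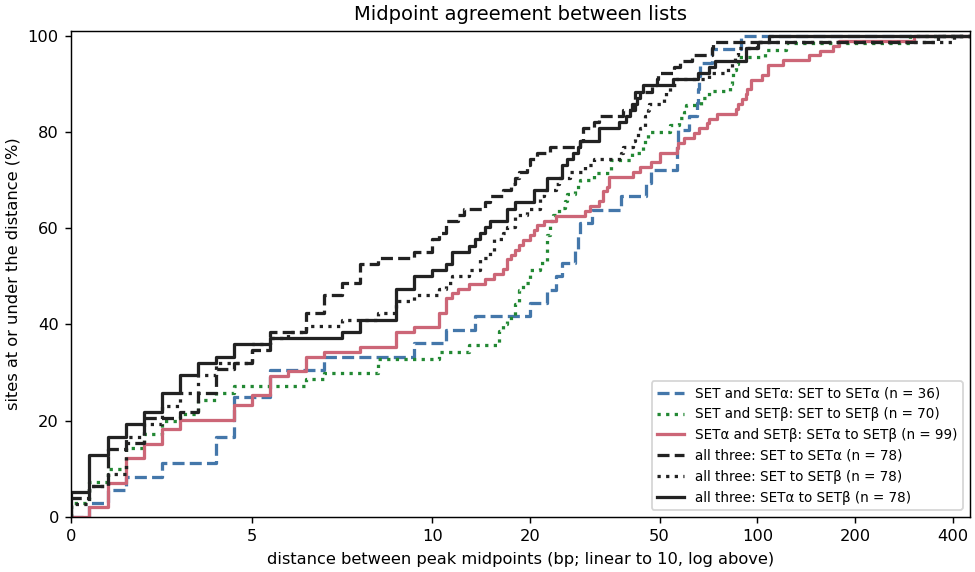
Cumulative share of sites (%) against the distance between peak midpoints (bp, linear to 10 and log above), 1 line for each class of site and pair of lists. The 3-list lines reach 50% at 8 to 12.25 bp and the 2-list lines at 15.5 to 24.5 bp.

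Midpoints showed no common shift to one side. The signed distance, positive where the second list lay at the higher coordinate, had a median of 1 bp from SET to SETα (interval -1.5 to 4 bp, 114 sites), 1.5 bp from SET to SETβ (-0.5 to 3.5 bp, 148 sites) and -1 bp from SETα to SETβ (-2.5 to 1 bp, 177 sites). SETβ midpoints lay to the right of SETα in 79 sites, to the left in 94 and at the same position in 4.

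The ends of the peaks differed by a recurring amount that the midpoints do not show. The SETα peak reached beyond the SET peak by a median of 13 bp on the left and 16 bp on the right. It fell short of the SET peak at neither end in 61 of 114 sites (53.5%). The SETβ peak reached beyond SET by a median of 32 bp at each end, and beyond SETα by a median of 16 bp at each end. With left and right ends counted together, the commonest single reach was 16 bp for SETα over SET, 32 bp for SETβ over SET and 16 bp for SETβ over SETα. Within 2 bp of that reach lay at least 1 end of 46 of 114 sites (40.4%), 60 of 148 (40.5%) and 75 of 177 (42.4%). Both ends did so in 8, 10 and 18 sites. This measure was chosen after its values were seen.

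**Figure D3:**
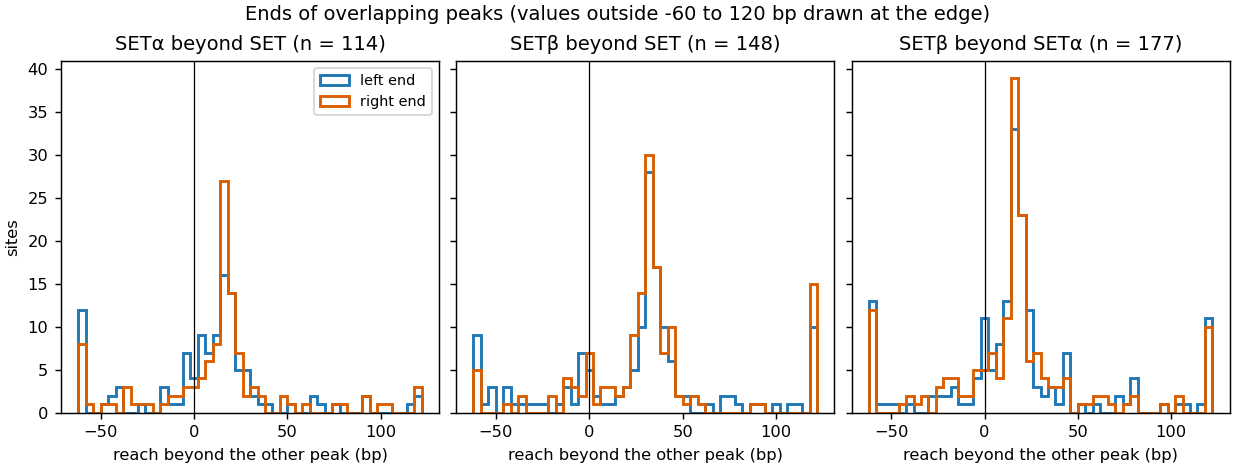
Number of sites by how far (bp) the peak of one list reached beyond the overlapping peak of another, at the left and right ends, for the 3 pairs of lists. The commonest reach, with left and right ends counted together, is 16 bp for SETα beyond SET, 32 bp for SETβ beyond SET and 16 bp for SETβ beyond SETα.

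Nesting followed from those ends. The SET peak lay wholly inside the SETβ peak in 42 of the 70 sites of SET and SETβ (60%) and in 53 of 78 sites of all 3 lists (67.9%). It lay inside the SETα peak in 16 of 36 (44.4%) and 45 of 78 (57.7%). The SETα peak lay inside the SETβ peak in 56 of 99 (56.6%) and 55 of 78 (70.5%). The reverse was rare, with 6 SETα and 6 SETβ peaks inside a SET peak and 10 SETβ peaks inside a SETα peak over all classes. In 51 of the 78 sites of all 3 lists (65.4%, 54.3 to 74.99%) the widths ran in the order SET, SETα, SETβ from the narrowest to the widest. The 3 lists as a whole had the same order, with median widths of 198, 223.5 and 256 bp.

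Peaks in sites of all 3 lists had the best median rank of any class by the authors' score, which is used here within a list only. Their median rank was 80.5 of 3446 for SET, 75 of 1186 for SETα and 78.5 of 1566 for SETβ, and the leading 10% of the list took in 76.9%, 57.7% and 69.2% of them. Leading peaks were also found in no site, and for SET alone these were the larger part. For SET the leading 10% held 216 peaks found in 1 list and 60 in 3-list sites. It also held 53 SET peaks shared with SETβ alone and 16 shared with SETα alone. For SETα the leading 10% held 53 peaks in 1 list, 45 in 3-list sites, 30 shared with SETβ alone and 5 with SET alone. For SETβ it held 41 in 1 list, 54 in 3-list sites, 33 shared with SETα alone and 29 with SET alone. Sites of SET and SETβ came next for SET, with a median rank of 151 and 75.7% in the leading 10% (64.5 to 84.2%), against 469.5 and 44.4% (29.5 to 60.4%) for sites of SET and SETα. The SETβ peaks of the former had a median rank of 161 of 1566, and the SETα peaks of the latter 301 of 1186. Sites of SETα and SETβ had median ranks of 212.5 for SETα and 270 for SETβ. Peaks of the lower 50% of their list made up 27.8% of the SETα peaks shared with SET, 13% of those shared with SETβ and 5.13% of those in all 3 lists.

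Order within the lists was most alike between the isoforms at sites of all 3 lists. Across those 78 sites Spearman's rho between the score ranks was 0.79 for SETα and SETβ, 0.58 for SET and SETβ and 0.50 for SET and SETα. Across the 99 sites of SETα and SETβ it was 0.49, across the 70 of SET and SETβ 0.48 and across the 36 of SET and SETα 0.22. These correlations are across sites of single libraries, which share the genome's background, and they are given as a description.

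Leading the sites of all 3 lists was the site at chr2:98506357-98507527, where SET covered 1106 bp (98506390 to 98507495), SETα 1138 bp (98506374 to 98507511) and SETβ 1171 bp. The 3 midpoints lay within 0.5 bp of each other although the site is among the widest. Next were 98502318 to 98503172 and 98505159 to 98505416 on the same chromosome, with SETα and SETβ midpoints 0 and 1 bp apart. At the former the SET midpoint lay 31.5 bp from those of both isoforms. At the latter it lay 0.5 bp from SETα and 1.5 bp from SETβ. The site at chr6:103599030-103599330 had peaks of 230, 244 and 301 bp for SET, SETα and SETβ, with SET and SETβ midpoints 1.5 bp apart. The site at chr7:86536603-86537095 joined a 102 bp SET peak, a 130 bp SETα peak and a 493 bp SETβ peak. The remaining leading sites were at chr10:92960934-92961095, chr3:124106907-124107083, chr11:56989562-56989753, chr2:167720858-167721087 and chr4:30628760-30628975. Their widths ran from 162 to 230 bp, and their SET to SETα distances from 5.5 to 42 bp.

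SET and SETβ shared several strong sites without a SETα peak. The first, at chrX:62071440-62071602, ranked 15 of 3446 in SET and 8 of 1566 in SETβ, with midpoints 2 bp apart. The site at chr16:84490232-84490353 ranked 23 and 11, with midpoints 17 bp apart. The site at chr4:84264899-84265101 ranked 27 and 30, chr7:25162880-25163066 ranked 32 and 30, and chr11:29057737-29057926 ranked 71 and 15. In each of these 5 sites the SET peak lay within the SETβ peak, with SET widths of 86 to 154 bp.

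Sites of SET and SETα were weaker by rank. The leading one, at chr10:18764164-18764300, ranked 86 of 3446 in SET and 52 of 1186 in SETα. It was followed by chr11:49433525-49433642 (ranks 38 and 152), chr9:75680897-75681035 (86 and 148), chr18:43528987-43529193 (51 and 171) and chr2:148009273-148009491 (226 and 171). Their midpoints were 9.5 to 61.5 bp apart.

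Among the sites of SETα and SETβ, chr9:3023370-3023633 came first, with ranks of 17 in SETα and 24 in SETβ. The site at chr13:111393254-111393380 ranked 22 and 18, and chr9:3002037-3002381 ranked 24 and 21. The sites at chr4:31281279-31281453 (30 and 39) and chr16:5709213-5709386 (34 and 37) had midpoints 1 and 3 bp apart. Both chromosome 9 sites belong to a stretch of neighbouring sites at the start of that chromosome.

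In the 2-list classes the largest midpoint distances were found at sites whose isoform peaks ranked near the end of their lists or in their lower part, and in the 3-list class at a site with ranks of 2301 in SET, 69 in SETα and 364 in SETβ. At that site, chr13:21998616-21999340, the SET and SETβ peaks did not touch each other and were joined by the SETα peak between them, so that SET and SETβ midpoints lay 402.5 bp apart. This was the single site of its class in which a pair of lists had no direct overlap. The largest distances in the other classes were 304 bp at chr8:19922182-19922900 (SETα rank 1183 of 1186, SETβ 1300 of 1566), 295.5 bp at chrX:121304346-121304950 (SET rank 924 of 3446, SETβ 1471 of 1566) and 89 bp at chrY:2882704-2883296 (SET rank 968 of 3446, SETα 1154 of 1186). The smallest overlaps of a class were 70 bp for SETα and SETβ, at chr13:23377217-23377642, and 87 bp for SET and SETα, at chr3:107505090-107505306.

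The sites lay on every chromosome, mostly far apart. The median gap to the next site was 5.202 Mb (interquartile range 0.927 to 11.6 Mb). Chromosome 9 had 33 sites, or 0.273 per Mb of the span covered by peaks, but 17 of them lay in a single stretch of 38321 bp. Without the stretches it had 16 (0.132 per Mb), and chromosome 3 had the most with 21. Chromosomes 2 and 13 had 20 each (16 and 17 without the stretches) and chromosome 8 had 18. Per Mb, the 3 sites on chromosome Y, where peaks spanned 1.38 Mb, gave 2.18. Chromosome 19 had 2 and chromosome 7 had 8. Chromosomes 9 and 13 held 17 and 15 of the 99 sites of SETα and SETβ, or 2 and 12 without the stretches, while chromosomes 7, 19 and Y held none of that class. Sites of SET and SETβ were spread more evenly, with at most 7 on a chromosome.

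**Figure D4:**
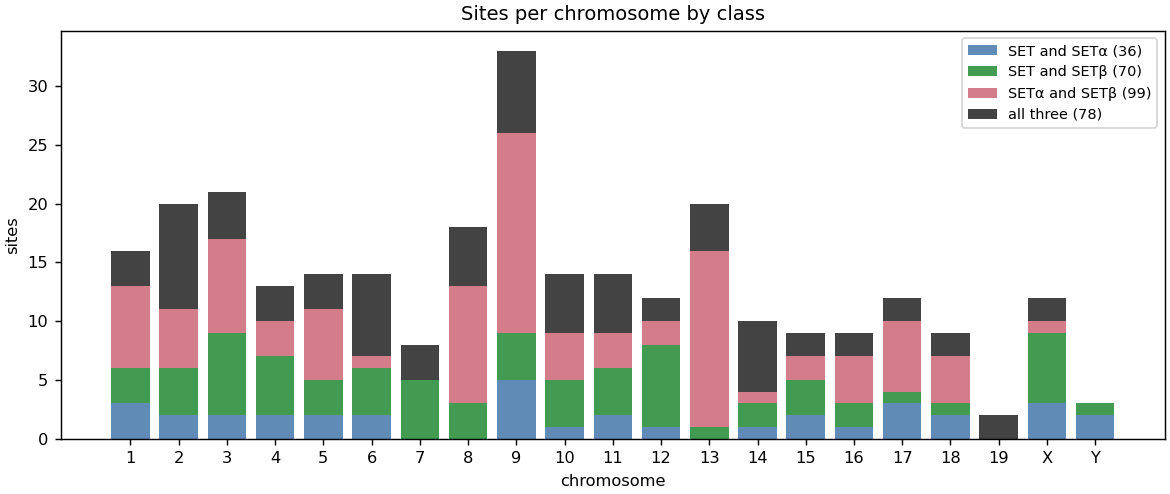
Number of sites on each chromosome, stacked by class. Chromosome 9 has the highest bar with 33 sites, 17 of them shared by SETα and SETβ (16 and 2 without the stretches), and 15 of the 20 sites on chromosome 13 belong to the same class.

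Chromosomes 1 and 8, where isoform peaks in 1 list were frequent, held 34 of the 283 sites (12.0%, 8.73 to 16.3%). Of the SETα peaks, 28.3% of the 972 in 1 list (25.6 to 31.2%) lay there and 13.1% of the 214 in a site (9.21 to 18.3%). The SETβ shares were 28.0% (25.6 to 30.5%) and 12.6% (8.98 to 17.3%), and the SET shares 11.4% (10.4 to 12.6%) and 9.24% (5.85 to 14.3%). The intervals are apart for both isoforms and overlap for SET. These chromosomes were picked for their density of isoform peaks in these same lists. The separation is therefore not independent of that choice, and nothing is read from it. By class, 17.2% of sites of SETα and SETβ (11.01 to 25.8%), 10.3% of those of all 3 lists (5.29 to 18.95%), 8.57% of those of SET and SETβ (3.99 to 17.5%) and 8.33% of those of SET and SETα (2.87 to 21.8%) were on these chromosomes. Scores were higher in sites there and on all autosomes alike. On chromosomes 1 and 8 the median score was 53.2 for all SETα peaks and 101.1 for those in a site. On all autosomes these medians were 57.2 and 93.7. Among peaks scoring at least 100 the share in a site was 73.7% there (51.2 to 88.2%, 14 of 19 SETα peaks) and 60.9% on all autosomes (53.1 to 68.2%), with overlapping intervals. For SETβ these shares were 57.1% (40.9 to 72.0%, 20 of 35) and 57.2% (50.9 to 63.3%). All autosomes here include chromosomes 1 and 8. At 60 or more the share in a site was 25% (16.8 to 35.5%, 20 of 80) and 35.9% (31.8 to 40.3%) for SETα, and 27.1% (19.2 to 36.7%, 26 of 96) and 38.3% (34.3 to 42.5%) for SETβ.

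Chromosome X had few peaks, and a large part of them fell in sites. In a site were 11 of 31 SET peaks (35.5%, 21.1 to 53.1%), against 170 of 3388 on the autosomes (5.02%, 4.33 to 5.81%). Of the SETα peaks, 6 of 17 on X (35.3%, 17.3 to 58.7%) and 206 of 1164 on the autosomes (17.7%, 15.6 to 19.995%) were in a site. Of the SETβ peaks, 9 of 25 (36%, 20.2 to 55.5%) and 237 of 1536 (15.4%, 13.7 to 17.3%) were. For SET and SETβ the intervals do not overlap. Chromosome X was singled out after these values were seen. The median score was 50.9 on X and 47.3 on the autosomes for SET, and 89.8 and 55.5 for SETβ. Under a score of 60, 6 of 25 SET peaks on X (24%, 11.5 to 43.4%) and 34 of 2919 on the autosomes (1.16%, 0.835 to 1.62%) were in a site. At 60 or more, the counts were 5 of 6 (83.3%, 43.6 to 97.0%) and 136 of 469 (29.0%, 25.1 to 33.3%). For SETβ the shares on X and the autosomes were 18.2% (5.14 to 47.7%, 2 of 11) and 3.20% (2.27 to 4.48%) under 60, 50% (26.8 to 73.2%, 7 of 14) and 38.3% (34.3 to 42.5%) at 60 or more, and 55.6% (26.7 to 81.1%, 5 of 9) and 57.2% (50.9 to 63.3%) at 100 or more. The SETβ intervals overlap in the upper 2 of these classes.

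The 12 sites on X were 6 of SET and SETβ, 3 of SET and SETα, 2 of all 3 lists and 1 of SETα and SETβ. Apart from the leading site named above they included chrX:139917512-139917755, in all 3 lists, with ranks of 944 in SET, 20 in SETα and 17 in SETβ, and at 67323253 to 67323417, also in all 3 lists. The single site of the isoforms alone was at 44646623 to 44646741, with midpoints 6.5 bp apart.

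On chromosomes X and Y, sites of different classes stood side by side. On X, a site of SET and SETα at 121303113 to 121303252 lay next to the site of SET and SETβ at 121304346 to 121304950. On Y, a site of SET and SETα at 2882704 to 2883296 was 23 bp from a site of SET and SETβ at 2883320 to 2884198, the smallest gap between any 2 sites. The SET peak of the latter ranked 53 of 3446, while the isoform peaks of both Y sites were near the end of their lists (1154 of 1186 and 1423 of 1566). The third site on Y was at 2858913 to 2859086, held by SET and SETα.

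Another site lay within 10 kb of 32 of the 283 sites (11.3%, 8.12 to 15.5%). These were 23 of the 99 sites of SETα and SETβ (23.2%, 16.0 to 32.5%), 5 of 78 of all 3 lists (6.41%), 2 of 36 of SET and SETα (5.56%) and 2 of 70 of SET and SETβ (2.86%, 0.787 to 9.83%). Of the 32, 24 belonged to 3 stretches of at least 3 sites, on chromosomes 2, 9 and 13. Without these stretches, 4 of the other 80 sites of SETα and SETβ (5.00%) and none of the 73 of all 3 lists had such a neighbour.

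The chromosome 9 stretch ran from 2999969 to 3038289, at the start of the assembled chromosome, which in the acrocentric chromosomes of the mouse lies next to the pericentromeric satellite DNA. Its 17 sites were 15 of SETα and SETβ and 2 of all 3 lists, with a median width of 216 bp and gaps of 107 to 7096 bp. Of 22 SETα and 22 SETβ peaks there, 18 and 17 were in a site. The median SETα to SETβ midpoint distance was 13 bp, against 15.5 bp for the 99 sites of SETα and SETβ. SETα scores ran from 44.3 to 244 and SETβ scores from 43.0 to 318, whereas both SET peaks were low, at 45.7 and 53.0. Over all chromosomes, 19 of the 283 sites lay within 1 Mb of the first peak of their chromosome, and 2 of these were outside the stretches.

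The chromosome 2 stretch, from 98502318 to 98507527, held 4 sites in 5210 bp, 3 of all 3 lists and 1 of SETα and SETβ. The first 3 of the leading sites of all 3 lists are its members, and each list had its highest score there. The inputs were not analysed, so recurrent background at this stretch and at the one on chromosome 9 was not tested. Its SETα and SETβ midpoints were a median of 0.75 bp apart, with 120 bp at the site without SET. That site scored 63.9 in SETα and 63.4 in SETβ, between neighbours that scored 922 to 3100 and 832 to 3100. The sources used here do not say whether the score can exceed 3100.

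On chromosome 13 the stretch from 23609442 to 23622511 held 3 sites of SETα and SETβ and no SET peak. It is part of a denser region from 21 to 24 Mb, which was chosen after its values were seen in earlier work on these data and held 11 of the 20 sites of the chromosome, 10 of SETα and SETβ and 1 of all 3 lists. Chromosome 13 carries the largest cluster of histone genes in the mouse. Whether these sites lie in it was not analysed here, as no mm9 annotation was used. The sites of this region were wide, with a median of 410 bp (244 to 725 bp) against 216 bp for the whole class of SETα and SETβ. Their SETα and SETβ midpoints were far apart, with a median distance of 86 bp (30.5 to 178 bp) against 15.5 bp for that class. Wider peaks allow larger distances, and distant midpoints widen a merged site, so width and distance are linked here. The distance relative to its largest possible value was not taken for this region. The SETβ midpoint lay to the right in 9 of the 11 sites, as at 23504405 to 23504814 (93 bp), 23538479 to 23538853 (86 bp) and 23622089 to 23622511 (95.5 bp), and to the left at 21325798 to 21326216 (170.5 bp) and 23492595 to 23493076 (155.5 bp). Neighbouring sites of 1 region are not independent of each other.

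**Figure D5:**
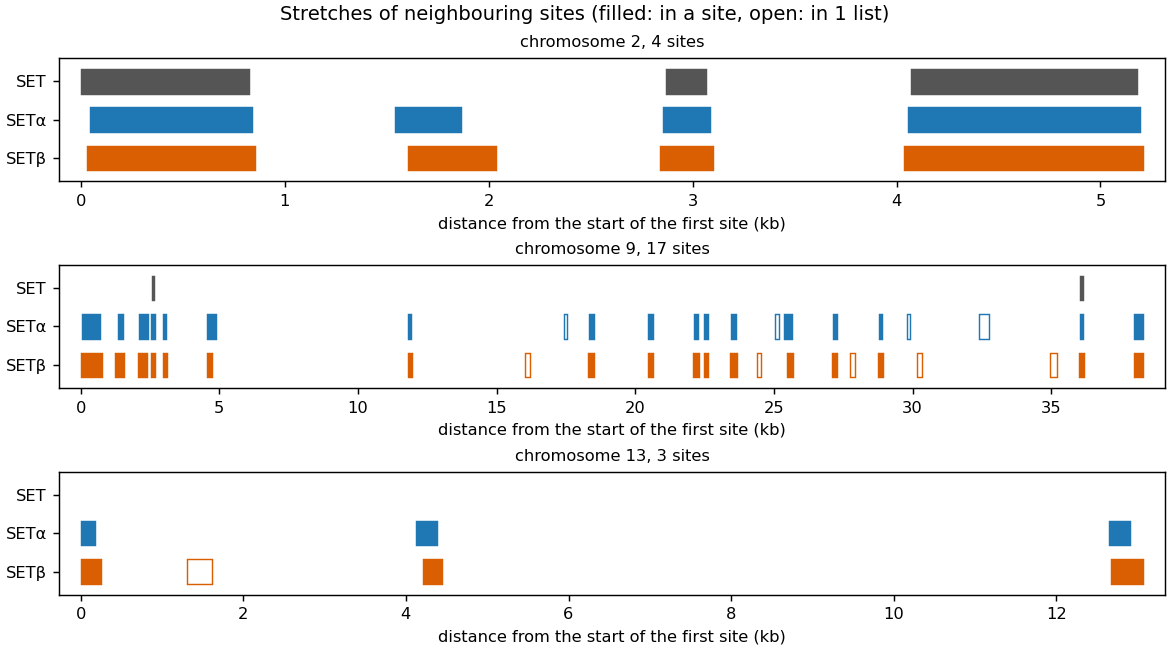
Peaks of the 3 lists along the stretches of neighbouring sites on chromosomes 2, 9 and 13, by distance from the start of the first site (kb), filled where the peak is in a site and open where it is in 1 list. On chromosome 2 the boxes of all 3 lists overlap at 3 of the 4 sites, on chromosome 9 SETα and SETβ share 17 sites and SET has 2 peaks, and on chromosome 13 the SETβ boxes reach farther right than those of SETα.

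The list missing from a 2-list site seldom had a peak within 1 kb. For sites of SET and SETα, a SETβ peak lay within 1 kb of 1 of 36 and within 100 kb of 8, and the median distance was 586 kb. For sites of SET and SETβ, a SETα peak lay within 1 kb of 1 of 70 and within 100 kb of 11 (median 688 kb). For sites of SETα and SETβ, a SET peak lay within 1 kb of 5 of 99 and within 100 kb of 46 (median 118 kb), but the SET list is the longest and 19 of the 99 sites lie in the stretches. Within 10 kb the counts of these classes were 3 of 36, 2 of 70 and 16 of 99. No rate at other positions was taken for comparison. A missing peak means that none was called, in a library of unknown depth.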

How the data were processed

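Reads were handled with the aligner Bowtie 0.12.7 and the peak caller MACS 1.4 on build mm9, per the submitters' processing notes. The sources used here give no parameters, no role of the inputs and no library depths. The authors deposited 1 list per library with position and peak score. The deposited score has no stated scale and served for ranks and classes inside a list. The R1 and KH2 inputs and the anti-H1 libraries were not analysed here.

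Overlaps of at least 1 bp between lists were merged into sites, and the highest-scoring peak of a list gave its midpoint. The code was tested on simulated lists with planted sites. Named sites are the 5 of each 2-list class and 10 of the 3-list class with the best mean percentile rank, the largest midpoint distance and smallest overlap of each class, sites with more than 1 peak of a list, the 5 smallest gaps, and stretches of 3 or more sites within 10 kb of the next. Members and rules were chosen with earlier results of these data known. The gene and sequence tables used here are on GRCm38, so no genes were assigned and no sequence was read. Computations ran in Python 3.11.15 with scipy 1.17.1, pandas 2.3.3 and numpy 2.4.6, and plots in matplotlib 3.10.9.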

Additional observations from a re-analysis of the deposited data

How the results depend on the processing

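Counts of sites, median widths, midpoint distances, shares on chromosomes 1 and 8 and shares with a neighbouring site were recomputed under 9 alternatives. Of 164 values, 156 stayed within 1.5 times the count or within the interval of the first value. With scores of at least 60 in every list, sites of SET and SETα numbered 16 in place of 36, and the median width of sites of SETα and SETβ was 184 bp in place of 216 bp. Under that minimum, and with lists of equal length, 0% of sites of SET and SETα and 0% of sites of SET and SETβ had a neighbour within 10 kb. Without the stretches, an alternative chosen after seeing the data that leaves out neighbouring sites by construction, this share was 5.00% for SETα and SETβ and 0% for all 3 lists. Requiring an overlap of 50% of both peaks, joining peaks up to 100 bp apart, classing by direct overlaps, leaving out the site with 2 peaks of a list, taking the midpoint over all peaks of a list and a neighbour distance of 100 kb moved none of the values recomputed under them past those limits. Inside these limits, the 50% rule took the SET to SETα distance in their 2-list sites from 24.5 to 9.5 bp. That rule removes distant midpoints by construction and also changes which sites are in the class. Of the 36 sites, 29 met it, while 35 were counted under it, so the others came from 3-list sites. A score of at least 60 or leaving out the stretches took the SETα to SETβ distance in their 2-list sites from 15.5 to 11 and 11.25 bp. No paired analysis was possible because each group has 1 library. The unknown depth limits every statement on a site missing from a list.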
